A study of Mus musculus with 2 samples.

Results

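GABA is the main inhibitory transmitter of the cerebral cortex, and 8 genes that make, move, break down and sense it are described here in frontal cortex of the mouse. They were chosen by symbol as Gad1, Gad2, Slc32a1, Slc6a11, Abat, Aldh5a1, Gabbr1 and Gabbr2, and are 8 of the 43346 annotated genes quantified, with 33 annotated transcripts. All 8 were found in both libraries and none was lost to a filter on low values. The study has 1 group, frontal lobe tissue taken at 8 weeks of age from C57BL/6J littermates of mixed sex, with no treatment, transgene or mutation named in the labels. Polyadenylated RNA above 200 nt, depleted of ribosomal RNA, was sequenced as stranded paired-end reads in 2 libraries labelled as biological replicates, and both are tied to the same donor entry. With 1 group there is no contrast of conditions, so the results are levels, transcript use and differences between the libraries.

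Glutamate decarboxylase, encoded by Gad1 and Gad2, turns glutamate into GABA with pyridoxal phosphate as cofactor. The vesicular transporter Slc32a1 loads GABA into synaptic vesicles, and Slc6a11, known mainly from astrocytes, takes released GABA back up. Abat, the GABA transaminase, and Aldh5a1, the succinic semialdehyde dehydrogenase, pass its carbon to the citric acid cycle, a route called the GABA shunt. Gabbr1 and Gabbr2 form the metabotropic GABA-B receptor as an obligate heterodimer, in which Gabbr1 binds GABA and Gabbr2 couples to inhibitory G proteins.

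The libraries held 106084891 (replicate 1) and 90476207 (replicate 2) expected counts over all entries, and the 8 genes took 0.294% and 0.301% of the counts of annotated genes. The X-inactivation RNA Xist had 107 counts in replicate 1 and 77696 in replicate 2, and the Y-linked Ddx3y had 4584 counts in replicate 1 and 1 in replicate 2, whereas both labels give pooled sexes. By these 2 genes replicate 1 had the pattern of male tissue and replicate 2 that of female tissue. This split between the libraries cannot be told apart from any other difference between them.

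Gad1 had the highest level of the 8 genes, and the order was Gad1, Gabbr1, Slc6a11, Abat, Slc32a1, Gabbr2, Gad2 and Aldh5a1 in each library. Levels are TPM, a share of transcripts adjusted for length that can be set between genes. In bulk tissue such a level joins several cell types, and fewer cells of a type and less RNA per cell cannot be told apart. Intervals are the bounds that the authors deposited for each TPM, at a level the files do not state. Neighbours in this order were taken as apart when the log2 ratio of their TPM had 1 sign in both libraries, its mean exceeded its SD and the deposited intervals did not overlap in either library. By that rule 6 of the 7 neighbouring pairs were apart, and Gabbr2 and Gad2 were not. No p-value goes with it, because an exact sign-flip test over 2 libraries cannot give a two-sided p under 0.5.

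**Figure D1:**
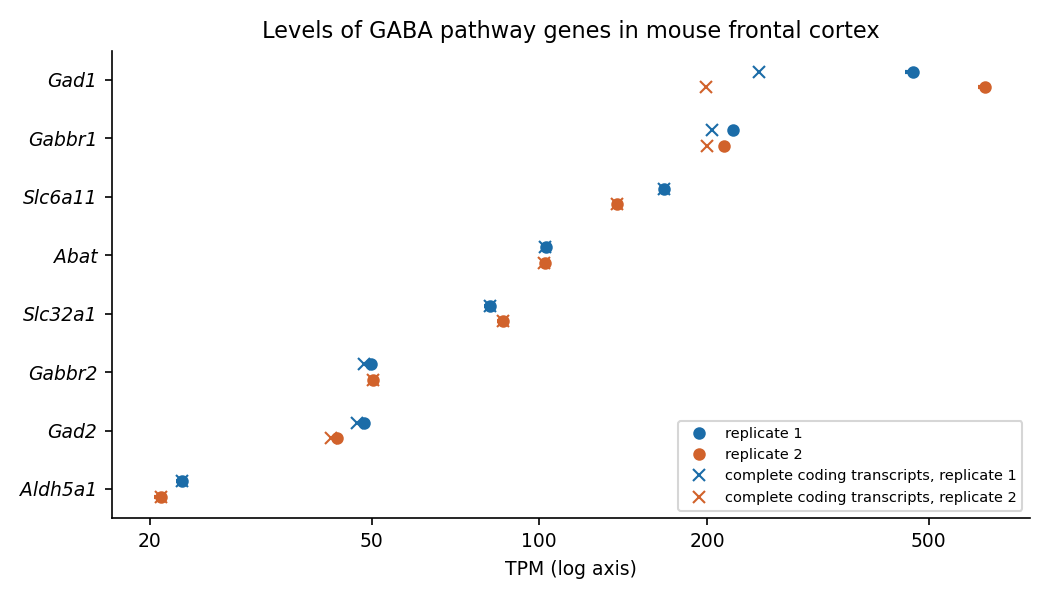
TPM (log axis) of the 8 genes in replicate 1 (blue) and replicate 2 (orange), as circles with the deposited interval where it is wider than the circle, and as crosses for the sum over complete protein-coding transcripts alone. Circles and crosses lie close together for all genes except Gad1, whose circles are at 468 and 631 TPM and whose crosses are at 248 and 199.5 TPM.

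Gad1 stood at 468 TPM in replicate 1 (interval 453 to 476) and 631 TPM in replicate 2 (613 to 639), a mean of 549 ± 115 TPM (SD, n = 2). It ranked 76 among 21461 nuclear protein-coding genes (ENSMUSG00000070880.6, chromosome 2, 70553072 to 70602014, plus strand, mm10). The intervals of the libraries lay far apart for this gene, whereas its counts, 79612 and 73517, differed by 0.17 on the log2 scale once scaled to depth.

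Gad2, the second decarboxylase, was listed at 48.5 TPM in replicate 1 and at 43.3 in replicate 2, a mean of 45.9 ± 3.65 TPM (SD, n = 2), with 21586 and 17590 counts (ENSMUSG00000026787.3, chromosome 2, 22622205 to 22693874, plus strand). Gad1 exceeded Gad2 by 3.57 ± 0.42 on the log2 scale of TPM, with 3.27 in replicate 1 and 3.86 in replicate 2. Both libraries showed Gad1 as the higher of the isozymes. The size of the difference depended on which transcripts were summed. It was 2.32 ± 0.12 over complete protein-coding transcripts alone and 1.97 ± 0.13 by counts not divided by length.

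Slc32a1 was listed at 81.4 TPM in replicate 1 and at 86.0 in replicate 2, a mean of 83.7 ± 3.27 TPM (SD, n = 2), with 17441 and 16653 counts (ENSMUSG00000037771.11, chromosome 2, 158610767 to 158615748, plus strand). Gad1, Gad2 and Slc32a1, the 3 genes that define a neuron that makes and releases GABA, all lie on chromosome 2. Gad1 exceeded Slc32a1 by 2.70 ± 0.25 on the log2 scale of TPM, and by 1.41 ± 0.28 over complete protein-coding transcripts alone. Slc32a1 stood above Gad2 in both libraries by TPM, whereas its counts, not divided by length, were below those of Gad2 in both.

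Slc6a11 was listed at 167 TPM in replicate 1 and at 138 in replicate 2, a mean of 152 ± 20.9 TPM (SD, n = 2), with 53390 and 39755 counts (ENSMUSG00000030307.7, chromosome 6, 114131241 to 114249952, plus strand). Its intervals in the libraries, 165 to 167 and 135 to 138 TPM, did not meet. It exceeded the vesicular transporter Slc32a1 by 0.86 ± 0.25 on the log2 scale of TPM. Slc6a13, a related GABA transporter known from meninges and vessels, was listed at 9.28 TPM in replicate 1 and at 6.05 in replicate 2. Slc6a11 exceeded it by 4.34 ± 0.24.

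Abat, the first step of GABA breakdown, was listed at 103 TPM in replicate 1 and at 102 in replicate 2, a mean of 103 ± 0.311 TPM (SD, n = 2), with 37175 and 33631 counts (ENSMUSG00000057880.8, chromosome 16, 8513429 to 8621568, plus strand). Aldh5a1, the next step, was listed at 22.9 TPM in replicate 1 and at 20.9 in replicate 2, a mean of 21.9 ± 1.38 TPM (SD, n = 2), with 10298 and 8525 counts (ENSMUSG00000035936.6, chromosome 13, 24907579 to 24937661, minus strand). The small SD of Abat belongs to the TPM scale. With TPM rescaled to the total of nuclear protein-coding genes, Abat stood at 208 ± 6.38, a wider spread for its mean. Abat exceeded Aldh5a1 by 2.23 ± 0.09 on the log2 scale of TPM, beyond the spread. Aldh5a1 was the lowest of the 8 genes in both libraries, at rank 4810 among nuclear protein-coding genes.

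Gabbr1 was listed at 222 TPM in replicate 1 and at 214 in replicate 2, a mean of 218 ± 5.73 TPM (SD, n = 2), with 57518 and 50779 counts (ENSMUSG00000024462.13, chromosome 17, 37045966 to 37075067, plus strand). Gabbr2 was listed at 49.8 TPM in replicate 1 and at 50.3 in replicate 2, a mean of 50.04 ± 0.332 TPM (SD, n = 2), with 22210 and 20816 counts (ENSMUSG00000039809.9, chromosome 4, 46662305 to 46991873, minus strand). The mRNAs of these heterodimer partners were thus not at equal levels. Summed over all transcripts, Gabbr1 exceeded Gabbr2 by 2.13 ± 0.05 on the log2 scale of TPM, a fold of 4.36, with 2.16 in replicate 1 and 2.09 in replicate 2. By counts per longest protein-coding transcript the difference was 1.46 ± 0.06, and the Gabbr1 sum includes shorter transcripts described further on. The receptor transcripts Gabbr1-203 and Gabbr1-201 stood at 122 and 26.4 TPM in replicate 1 and at 127 and 20.6 in replicate 2. Gabbr2-201 stood at 48.5 TPM in replicate 1 and at 50.3 in replicate 2. Gabbr2 and Gad2, the neighbours not apart by the rule, had overlapping intervals in replicate 1 and separate ones in replicate 2, and their log2 ratio was 0.13 ± 0.12.

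The TPM of Gad1 rested in large part on a transcript annotated at 398 nt. The deposited transcript table gives 8 Gad1 transcripts, and 3 of them took 10% or more of the TPM of Gad1 in either library. Gad1-201 (17 exons, 3355 nt) is the complete coding form with 1779 coding bases. Gad1-204 (398 nt, 4 exons) starts 8970 bases upstream of Gad1-201, shares all but its first 52 bases with other Gad1 transcripts and is annotated as incomplete at its 3′ end. It is annotated as protein-coding, and its 127 coding bases begin at the same start codon as those of Gad1-201. Gad1-206 (2996 nt, 16 exons) starts 4335 bases downstream of Gad1-201 at an exon of its own of 77 bases and then follows the exons of Gad1-201. It lacks the exon with the start codon and is annotated as a processed transcript, with no coding sequence. Gad1-201 has 2 bases that no other Gad1 transcript covers, so reads inside the shared exons were divided among these forms by the authors' estimation.

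The first coding bases of Gad1-201 are shown because Gad1-206 lacks them, and with them the start codon. The sequence is from GENCODE M21, plus strand, mm10, 5′ to 3′, at chr2:70563832-70563910, with the start codon in capitals.
Gad1-201 first coding stretch: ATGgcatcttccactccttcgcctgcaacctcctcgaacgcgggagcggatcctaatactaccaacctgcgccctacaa

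Gad1-201 had 63175 counts and 243 TPM in replicate 1, and 45429 counts and 193 TPM in replicate 2. Gad1-204 had 2481 counts and 157 TPM in replicate 1, and 4304 counts and 316 TPM in replicate 2. Gad1-206 had 12064 counts and 52.3 TPM in replicate 1, and 22004 counts and 106 TPM in replicate 2. The complete coding form Gad1-201 was therefore the leading Gad1 transcript by TPM in replicate 1 and the incomplete Gad1-204 in replicate 2, with intervals apart in both. The 6 Gad1 transcripts that use the start codon shared by these forms took 88.4% of Gad1 TPM in replicate 1 and 83.0% in replicate 2. By counts Gad1-201 led in both libraries, with 79.4% and 61.8% of Gad1 counts, against 3.12% and 5.85% for Gad1-204. The distance between TPM and counts follows the deposited effective lengths, which were 191 and 182 nt for Gad1-204 and 3147 and 3139 nt for Gad1-201. Because Gad1-204 is annotated as incomplete, the length of its RNA is not known from these data. If the RNA is longer than annotated, the TPM of Gad1-204 is too high.

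Without Gad1-204, the Gad1 transcripts summed to 310.4 TPM in replicate 1 and to 315 in replicate 2, a mean of 313 ± 3.31 TPM (SD, n = 2), a sum chosen after the transcript values were seen. On that sum the libraries were close and Gad1 remained the highest of the 8 genes. Over complete protein-coding transcripts alone, Gad1 summed to 248 TPM in replicate 1 and to 199.5 in replicate 2. Gabbr1 stood at 205 and 200.1 TPM on that measure, so Gad1 and Gabbr1 were not apart there, with a log2 ratio of 0.14 ± 0.20. Gabbr1-209, a shorter transcript described further on, took 22.9% and 22.8% of that Gabbr1 sum in replicates 1 and 2.

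**Figure D2:**
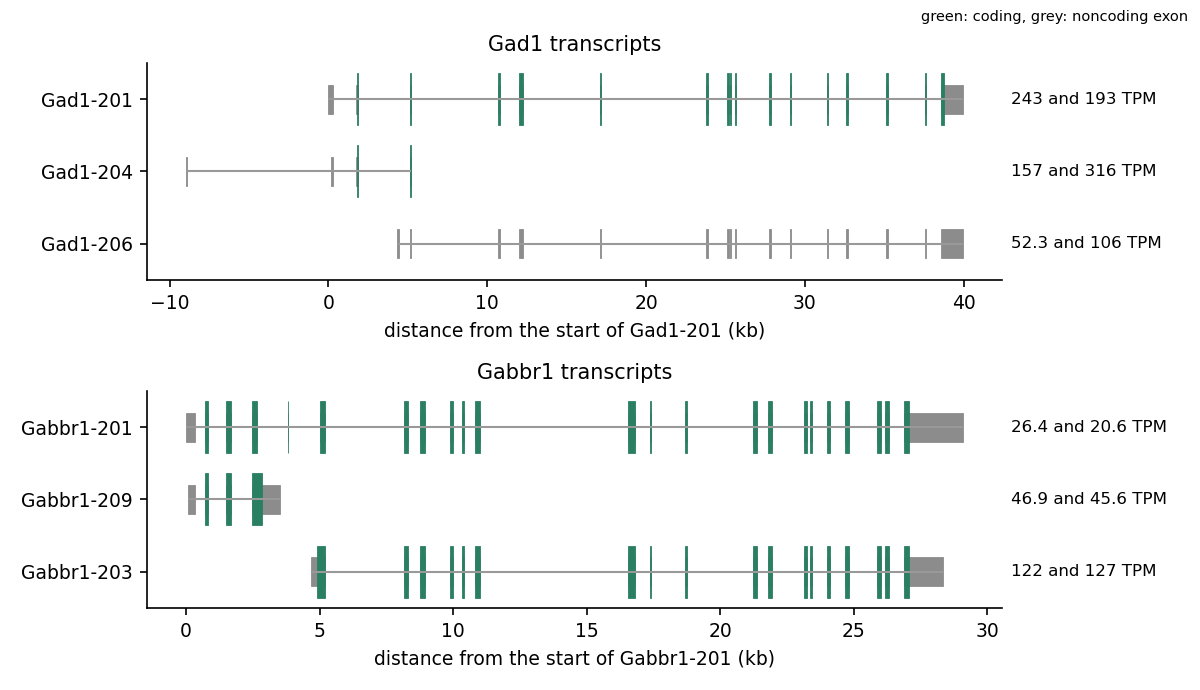
Exon maps of the 3 Gad1 and 3 Gabbr1 transcripts that took 10% or more of the gene's TPM in either library, drawn to scale as distance (kb) from the start of Gad1-201 or Gabbr1-201, with coding exons in green and noncoding exons in grey and the TPM of replicates 1 and 2 at the right. Gad1-204 covers only the start of the gene and Gad1-206 has no coding exon, and Gabbr1-203 begins inside an intron of Gabbr1-201.

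Both alternative Gad1 transcripts had more counts in replicate 2 than in replicate 1. The log2 ratio of their counts, scaled to depth, was 1.08 for Gad1-204 (counting interval 1.00 to 1.15) and 1.15 for Gad1-206 (1.12 to 1.18), whereas it was −0.20 for Gad1-201 (−0.21 to −0.18). These intervals cover counting error only and not the division of shared reads, for which the authors' posterior SDs were 748 and 726 counts for Gad1-206 in replicates 1 and 2. Among 9206 transcripts at 10 TPM or more, 84 or 0.912% were 2-fold or more higher in replicate 2, and 2 of the 12 such transcripts of the 8 genes, both of Gad1, were among them. The percent of Gad1 TPM taken by Gad1-201 was 51.9% in replicate 1 and 30.6% in replicate 2. A change of 10 points or more for some transcript was seen in 13.1% of 6268 genes with several transcripts at 10 TPM or more, and a change of the leading transcript in 7.18%. Of the 5 members with several transcripts, Gad1 alone met either description, the largest change in the other 4 being 4.12 points in Gabbr1.

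The other Gad1 transcripts were at low levels. Gad1-202, annotated as incomplete with 748 coding bases, stood at 7.66 and 7.80 TPM in replicates 1 and 2. Gad1-205, which carries an extra exon with a stop and has 669 coding bases against 1779 in Gad1-201, was listed at 5.47 TPM in replicate 1 and at 6.54 in replicate 2. Short Gad1 proteins from such splicing are known from the embryonic brain. Gad1-207 and Gad1-203, with the same coding length, were each under 0.5 TPM in both libraries. Gad1os, an antisense gene that overlaps the start of Gad1, stood at 0.59 and 0.88 TPM with 17 and 20 counts. The antisense genes over Slc32a1 and the end of Aldh5a1 had 12 counts or fewer in each library, and 9330162012Rik, which overlaps the start of Aldh5a1, had 299 and 320 counts. The libraries are stranded per the labels, but whether the counting used strand is not given in the sources used here.

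The transcript of the short receptor form led Gabbr1 in both libraries. The gene is known for a pair of receptor proteins from different starts: a long form whose N terminus carries sushi domains and a short form that lacks them. Gabbr1-201 (23 exons, 5248 nt) encodes the long form with 2880 coding bases. Gabbr1-203 (18 exons, 4036 nt) starts 4665 bases further downstream, inside an intron of Gabbr1-201, and has 2532 coding bases. The forms share 2387 coding bases. Gabbr1-201 has 493 coding bases of its own in 4 exons, and Gabbr1-203 has 145 of its own in its first exon.

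The stretches where coding begins in each form are shown to tell the forms apart, from GENCODE M21, plus strand, mm10, 5′ to 3′, with the start codon in capitals. Gabbr1-203 begins at chr17:37050854-37050998 and Gabbr1-201 at chr17:37046695-37046776.
Gabbr1-203 own coding stretch: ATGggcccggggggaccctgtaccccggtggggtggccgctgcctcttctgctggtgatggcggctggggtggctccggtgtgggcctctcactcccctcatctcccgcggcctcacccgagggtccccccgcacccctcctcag
Gabbr1-201 first coding exon: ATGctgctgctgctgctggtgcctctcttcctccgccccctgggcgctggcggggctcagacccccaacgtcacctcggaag

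Gabbr1-203 had 38738 counts and 122 TPM in replicate 1, and 36289 counts and 127 TPM in replicate 2. Gabbr1-201 had 11030 counts and 26.4 TPM in replicate 1, and 7774 counts and 20.6 TPM in replicate 2. The short receptor form exceeded the long one by 2.41 ± 0.29 on the log2 scale of TPM, with intervals apart in both libraries, and by 1.81 and 2.22 on the log2 scale of counts. Its lead was thus seen with and without division by length. Between the libraries, the counts of Gabbr1-201 gave a log2 ratio of −0.22, replicate 2 over 1, with a counting interval of −0.27 to −0.18, and those of Gabbr1-203 gave 0.19 (0.17 to 0.21).

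The second Gabbr1 transcript by TPM was neither receptor form. Gabbr1-209 (4 exons, 1595 nt) uses the start region of the long form, holds its first coding exons and ends in the following intron, with 687 coding bases. It was listed at 46.9 TPM in replicate 1 and at 45.6 in replicate 2, above the long form Gabbr1-201 in both libraries by TPM and below it by counts, with 5383 and 4718. All 1595 of its bases are also covered by other Gabbr1 transcripts, among them Gabbr1-202, a transcript with the same coding sequence at 8.89 and 7.17 TPM. Grouped by start codon, the 4 transcripts that use the upstream one took 38.3% of Gabbr1 TPM in replicate 1 and 35.9% in replicate 2. The 2 that use the downstream one took 55.2% and 59.3%. By counts the downstream start codon had 67.4% and 71.5%.

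**Figure D3:**
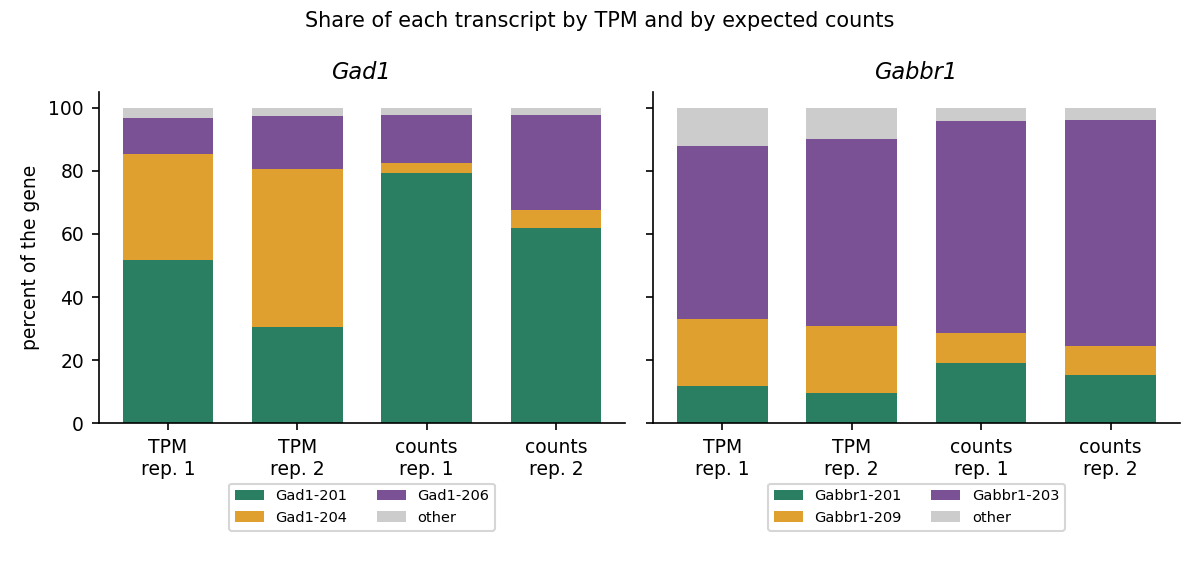
Percent of Gad1 (left) and of Gabbr1 (right) taken by each transcript in replicates 1 and 2, by TPM and by expected counts, with all further transcripts of the gene in light grey. Gad1-204 holds 33.6% and 50.05% of Gad1 TPM but 3.12% and 5.85% of its counts, whereas Gabbr1-203 leads Gabbr1 on both measures in both libraries.

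The other members were each dominated by 1 coding transcript. Abat-201 took 97.8% and 98.6% of Abat TPM in replicates 1 and 2, Gad2-201 took 96.97% and 97.8% of Gad2, and Gabbr2-201 took 97.4% and 100% of Gabbr2. Slc32a1, Slc6a11 and Aldh5a1 have 1 transcript each in the deposited tables. For all 8 genes the posterior SD of the gene count was listed at 0, whereas it reached 796 counts for the transcript Gad1-201.

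The promoters of Gad1 and Gabbr1 are shown because these genes have several starts, and the windows cover the start of the complete Gad1 form and of the long Gabbr1 form. Sequences are from RefSeq on GRCm38.p6, 250 bases before to 50 after the RefSeq start, plus strand, 5′ to 3′, at chr2:70561879-70562178 and chr17:37045716-37046015. Capitals mark matches to the motifs searched.
Gad1 promoter: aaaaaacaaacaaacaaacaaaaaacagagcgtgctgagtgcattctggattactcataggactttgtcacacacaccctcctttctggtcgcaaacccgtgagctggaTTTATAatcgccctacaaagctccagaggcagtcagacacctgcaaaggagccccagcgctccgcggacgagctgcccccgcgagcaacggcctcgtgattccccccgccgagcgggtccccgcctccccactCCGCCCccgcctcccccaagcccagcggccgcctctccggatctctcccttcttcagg
Gabbr1 promoter: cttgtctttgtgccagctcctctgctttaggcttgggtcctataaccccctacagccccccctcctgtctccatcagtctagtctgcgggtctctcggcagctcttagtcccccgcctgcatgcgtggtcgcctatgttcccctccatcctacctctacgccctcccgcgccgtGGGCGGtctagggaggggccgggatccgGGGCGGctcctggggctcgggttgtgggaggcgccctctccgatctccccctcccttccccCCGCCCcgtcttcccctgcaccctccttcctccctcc

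The motifs searched were the TATA box TATAAA, the CCAAT box spelled CCAAT, the GC box GGGCGG, the homeodomain core TAATTA and the cyclic AMP response element TGACGTCA. They were looked for on both strands, and matches may overlap one another. The Gad1 window held 1 match to TATAAA, on the minus strand at −141 from the RefSeq start, and 1 to GGGCGG. The Gabbr1 window held 3 to GGGCGG. Of all 32851 promoter windows, 13.6% held TATAAA and 35.7% GGGCGG. Of the 7 members with a window, 1 held TATAAA, 4 held GGGCGG and 2 held CCAAT, the last found in 37.4% of all windows. None held TAATTA or TGACGTCA, found in 5.29% and 1.79% of all windows. The RefSeq start of Gad1 lies 87 bases from the start of Gad1-201, and that of Gabbr1 at the start of Gabbr1-201. No window covers the start of Gabbr1-203. The G and C content of the 7 windows ran from 60.0% in Gad1 to 80.3% in Gabbr2, against a median of 52.7% over all windows. The observed over expected CpG count ran from 0.543 in Gad2 to 0.961 in Gabbr2, against a median of 0.384 over all windows.

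Between the libraries the gene counts of the members differed by less than 1.2-fold. The log2 ratio of replicate 2 over replicate 1 was taken from CPM, depth-scaled counts with TMM factors, and a gene was called when it was 1.2-fold or more apart. None of the 8 members was called, against 16.4% of 14599 annotated genes at 1 TPM or more, of which 8.06% were higher and 8.35% lower in replicate 2. Among the 8206 genes at 10 TPM or more, a range that holds all 8 members, the share was 8.85%, so 0 of 8 is near the background. Slc32a1 had the highest ratio of the members at 0.21 (counting interval 0.18 to 0.24), and Gabbr2 followed at 0.19 (0.16 to 0.21). Slc6a11 had the lowest at −0.14 (−0.16 to −0.13). Gad1 stood at 0.17, Abat at 0.14, Gabbr1 at 0.10, Aldh5a1 at 0.01 and Gad2 at −0.01, where the intervals of Aldh5a1 and Gad2 include 0.

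The median of the members was 0.12 and that of all genes −0.002, with 6 of 8 members above 0. On the TPM scale, with 1 TPM added to each value, the median of all genes was −0.12 and that of the members −0.03. On that scale 2 of 8 members passed 1.2-fold, Gad1 at 0.43 and Slc6a11 at −0.28, as did 20.4% of all genes, a share near that of the members. After centring on the median of all genes, Gad1 stood at 0.55 and passed, and Slc6a11 stood at −0.16 and did not, beside 14% of all genes that passed. For Gad1 the ratio by TPM without that addition, after centring on all genes, lay 0.40 above the ratio by CPM. A distance of 1.2-fold or more between the scales was found in 2.65% of 14554 genes, and in no other member.

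**Figure D4:**
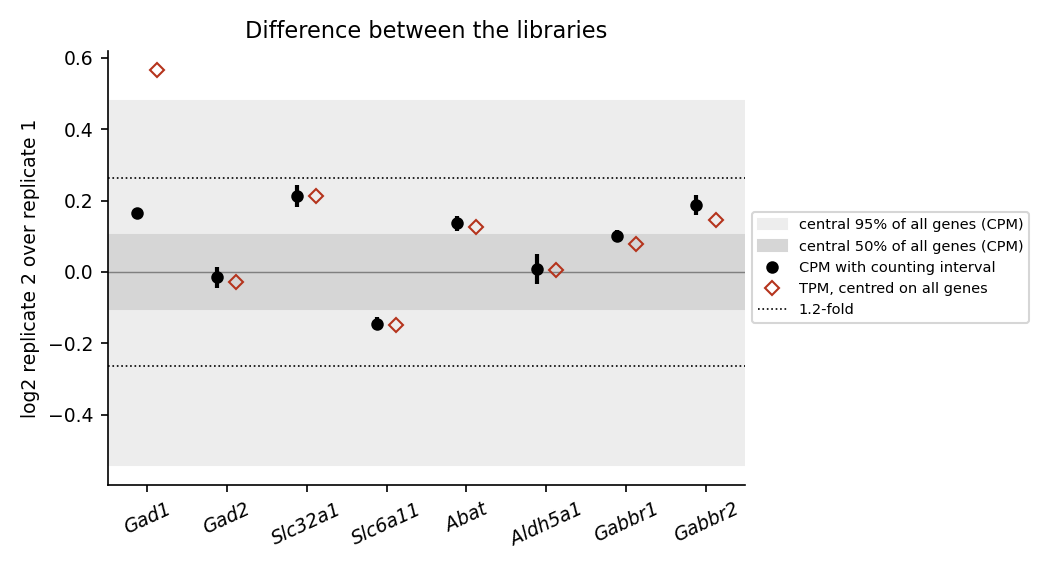
Log2 ratio of replicate 2 over replicate 1 for the 8 genes, from CPM with the counting interval (filled circles) and from TPM centred on all genes (open diamonds), over the central 95% and 50% of all genes at 1 TPM or more by CPM (grey bands). All circles lie within the 1.2-fold lines, and the Gad1 diamond is the 1 that lies outside them.

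Genes that mark cortical GABAergic interneurons were all detected, 10 of 10, from Lhx6 at 2.94 TPM to Sst at 339 TPM, with summed levels of 605 TPM in replicate 1 and 705 TPM in replicate 2. The median of their log2 ratios, replicate 2 over 1, was 0.23. Of the 10, 4 were 1.2-fold or more higher in replicate 2, beside 8.06% of all genes at 1 TPM or more. Olfactory bulb neurons include some that use GABA and some that use glutamate, and the marker list used here does not separate them. These markers were at 1148 and 1061 TPM summed over 8 of 8 members. They ran from Tbx21 at 5.00 TPM to Pcp4 at 453 TPM, with a list median of 109.6 TPM, and included Doc2g at 155 TPM and Th at 67.7 TPM. The sum rested most on Pcp4, Calb2 at 199 TPM, Doc2g and Synpr at 152 TPM, whereas Eomes stood at 14.7 TPM. Markers of striatal projection neurons, which also use GABA, were at 203 and 247 TPM summed over 8 of 8 members. Penk alone gave 102 and 116 TPM of these sums, whereas Drd1, Drd2 and Adora2a had means of 2.4, 3.2 and 4.3 TPM. Of the 8 striatal markers, 6 were 1.2-fold or more higher in replicate 2, beside the same 8.06% of all genes. None of the 8 bulb markers was, a count near that share. The median log2 ratio was 0.47 for the striatal list and 0.10 for the bulb list. Genes of the interneuron, bulb and striatal lists need not be confined to the named cells. A summed level is therefore not a measure of how much of each cell type or tissue was present. The part of bulb and striatal tissue in the levels of Gad1, Gad2 and Slc32a1 was not tested.

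Astrocyte markers, set beside Slc6a11, summed to 723 TPM over 8 of 8 members in replicate 1 and to 651 in replicate 2. The median of their log2 ratios was 0.05. The astrocyte markers ran from −0.37 for the water channel gene Aqp4 to 0.25 for the pump subunit gene Atp1b2, with 5 of 8 above 0. Slc6a11 at −0.14 lay inside that range, as did all 8 genes described here, so the range does not set Slc6a11 apart. Excitatory neuron markers, which bear on the tissue label, were at 1281 and 1245 TPM summed over 6 of 6, led by Camk2a at 707 TPM. Oligodendrocyte markers were at 1802 and 2221 TPM summed over 5 of 5. Of the 5, 4 were called higher in replicate 2, with a median of 0.45, beside 8.06% of all genes at 1 TPM or more. The excitatory list had 0 of 6 called, near the share of all genes, and a median of 0.18. The part of these shifts in the ratios of the members was not tested.

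Genes that act with the GABA-B receptor spanned a wide range of levels. Of 11 such genes, the G protein subunits Gnao1 and Gnai2 were the highest at 212 ± 6.58 and 174 ± 11.8 TPM (SD, n = 2), and Gnai1 followed at 71.8 ± 2.40 TPM. The potassium channel subunits that these G proteins open were led by Kcnj9 at 53.8 ± 1.40 TPM, with Kcnj3 at 33.0 ± 0.70 TPM and Kcnj6 at 5.78 ± 0.382 TPM. Jakmip1, whose protein binds the receptor, stood at 49.5 ± 2.83 TPM. Of the 4 Kctd genes, which encode auxiliary subunits of the receptor or their relatives, Kctd12 was the highest at 31.4 ± 4.96 TPM. Kctd16 and Kctd8 stood at 5.26 ± 0.163 and 2.72 ± 0.007 TPM, and Kctd12b was the lowest of the 11 at 1.55 ± 0.368 TPM. Kctd12b was also the single gene of the list past 1.2-fold between the libraries, at −0.35. Past that fold, in either direction, were 16.4% of all genes at 1 TPM or more, a share to set beside the counts of the lists below.

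The 6 genes of glutamate and cofactor supply described here lay between 32.7 and 172 TPM. The aspartate aminotransferase Got1 stood at 172 ± 11.4 TPM, Got2, its mitochondrial form, at 103 ± 8.81 TPM and the glutamate dehydrogenase Glud1 at 97.6 ± 12.8 TPM (SD, n = 2). Pdxk, the pyridoxal kinase of the cofactor route that both decarboxylases need, stood at 40.5 ± 1.40 TPM. The amino acid transporter Slc38a2 was the lowest of the 6 at 32.7 ± 3.62 TPM. None of the 6 genes was 1.2-fold apart between the libraries.

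The 7 genes next to the GABA shunt ran from the semialdehyde reductase Akr7a5 at 8.97 ± 0.276 TPM to the succinate dehydrogenase subunit Sdha at 154 ± 15.7 TPM (SD, n = 2). Ogdh, of the cycle step that the shunt bypasses, stood at 73.6 ± 2.02 TPM, and Suclg1 and Sucla2, subunits of succinyl-CoA ligase, stood at 65.4 ± 7.16 and 58.2 ± 11.03 TPM. Adhfe1, which oxidises gamma-hydroxybutyrate, stood at 15.1 ± 0.672 TPM. None of the 7 was 1.2-fold apart between the libraries, and Aldh5a1 at 21.9 TPM lay between Suclg2 at 15.2 TPM and Sucla2 in level.

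Genes of the route from putrescine to GABA ran below the decarboxylase Gad1, and Sat1 stood above the decarboxylase Gad2. Sat1 and Odc1, of polyamine metabolism, led the 6 genes at 52.1 ± 4.31 and 36.2 ± 1.59 TPM (SD, n = 2), and Aldh1a1 stood at 20.5 ± 1.91 TPM. Dao was the lowest of the list at 0.085 ± 0.007 TPM. It encodes D-amino acid oxidase and not the diamine oxidase of this route, whose gene was not in the list. Aldh1a1, at 0.32, was the 1 of the 5 genes at 1 TPM or more past 1.2-fold between the libraries. Of 4 further transport and release genes, the vesicle protein gene Vamp2 stood at 640.1 ± 26.8 TPM, and Slc6a12 and Best1 stood at 1.52 ± 0.375 and 0.335 ± 0.0636 TPM. Slc6a13, at −0.40, was the 1 of 3 at 1 TPM or more past 1.2-fold. The median log2 ratios of the lists were 0.06 for the GABA-B genes, −0.01 for glutamate and cofactor supply, −0.06 for the shunt, 0.03 for the putrescine route and 0.21 for the 3 transport and release genes, beside −0.002 for all genes.

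**Figure D5:**
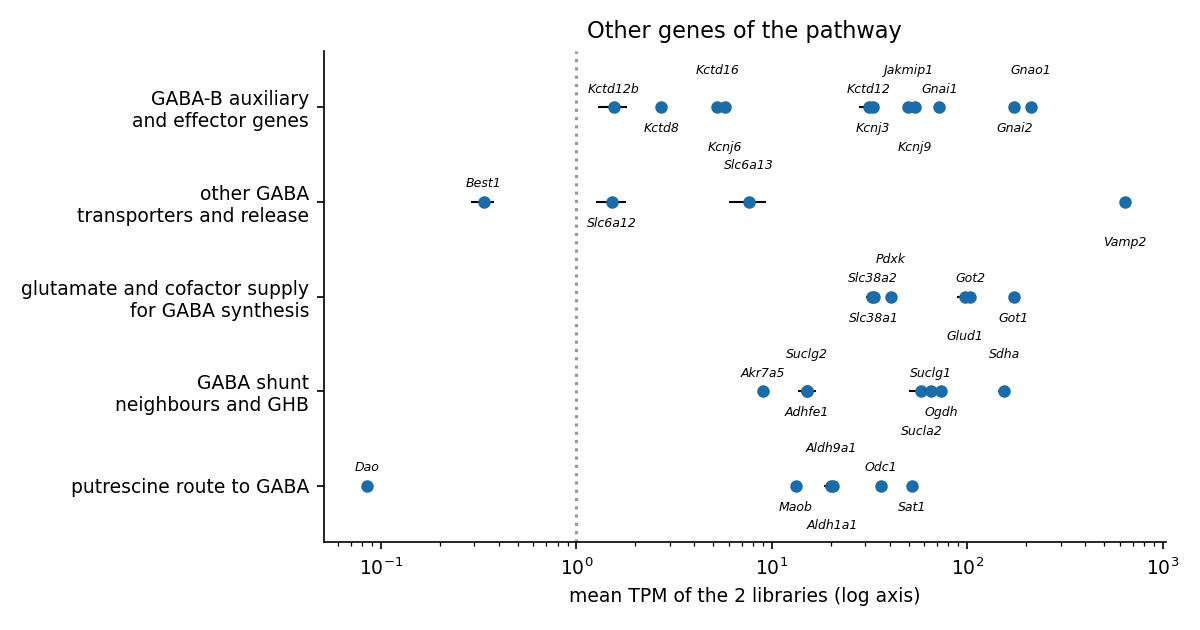
Mean TPM of the 2 libraries (log axis) for further genes of GABA metabolism and GABA-B signalling in 5 lists, with a line from replicate 1 to replicate 2 and a dotted line at 1 TPM. Best1 and Dao lie under 1 TPM, and Gnao1, Got1, Gnai2 and Sdha are the highest apart from Vamp2.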

How the data were processed

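Frontal cortex RNA was measured in 2 libraries of 1 group. For each library the authors deposited values per gene and per transcript. Their accompanying text names mm10 and annotation M4, and the program is not given in the sources used here. Deposited columns used were expected counts, posterior mean counts and their posterior SD (a score), TPM, FPKM, the percent of a gene's TPM per transcript, and interval bounds of TPM (a signal that is never negative). Expected counts were rounded for TMM. Symbols, transcript structures and coordinates came from GENCODE M21 by identifier without version, matching 42462 genes. Deposited lengths equalled those of M21 for all member transcripts except those of Gabbr2 and Slc6a11. Replicate ratios are log2 CPM with a prior count of 2 and TMM factors (edgeR 4.0.16, R 4.3.3), checked on simulated data, with exact conditional binomial intervals at 95%. They cover counting error only. PCR copies are not independent molecules. Some genes of the supply list are not reported here. Members and lists were chosen with earlier results of these data known. Genes named from lists are the most abundant 2 to 4 and those at the ends of the range, transcripts are named at 10% or more of a gene's TPM, and further ones were chosen after their values were seen. Alternatives included DESeq2 1.42.0 size factors, library size, spike-in totals, posterior means, FPKM, other transcript sums, pseudocounts and filters.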

Additional observations from a re-analysis of the deposited data

How the results depend on the processing

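All 6 gene pairs kept their direction under all alternatives run and stayed beyond the spread under those that keep both libraries. With 1 library left out there is no spread, and intervals were apart in each. The log2 lead of Gad1 over Gad2 ranged from 1.97 by counts not divided by length to 3.57 by FPKM, and from 3.27 to 3.86 with 1 library left out. By counts not divided by length, Gabbr1 over Gabbr2 was 1.33 and Slc6a11 over Slc6a13 was 5.40. The count of neighbours apart stayed at 6 or 7 of 7. Gabbr1 over Slc6a11 changed sign to −0.14 ± 0.17 by counts per longest protein-coding transcript, a mean within its SD and so not apart by the rule. Gad1 over Gabbr1 lost its separation over complete protein-coding transcripts alone, at 0.14. Gabbr2 over Gad2, which was not apart, passed at 0.13 to 0.15 under 5 measures judged by mean and SD alone, and at 0.22 without replicate 1. TPM with a pseudocount of 1 placed 2 members past 1.2-fold in place of 0, where 20.4% of all genes passed, and the other 6 scalings placed 0, where 16.4% to 17.3% passed. The share of Gad1-201, 41.2% of TPM on average, was 70.6% of expected counts and 97.2% over complete protein-coding transcripts. The share of Gabbr1-203, 57.0% of TPM, was 69.4% of counts, 61.4% over protein-coding transcripts and 61.6% over complete ones. The cause of the change of sign of Gabbr1 over Slc6a11 was not tested. Sums over complete protein-coding transcripts and without Gad1-204 were chosen after seeing the data. No paired analysis was possible because there is 1 group.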
